A study of Mus musculus with 14 samples.

Results

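The genes described here are 4 cytochrome P450 genes of the mouse Cyp2b subfamily, Cyp2b9, Cyp2b10, Cyp2b13 and Cyp2b23, and Nr1i3, which encodes the constitutive androstane receptor CAR. All probes that the platform annotation gives to these 5 genes were taken, 6 probes in all, out of 16593 named genes and 25697 probes on the array. The genes were chosen by their level, their spread within a diet, their difference between the diets and their covariation across mice, all measured on these same arrays, so those values are given as a description and not as a test. The label names a gene family and its receptor, not a cell type.

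Liver RNA came from male mice of the C57Bl/6J strain kept under specific pathogen free conditions. The mice ate isocaloric diets that differed in the sugar: 7 mice had sucrose and 7 had palatinose (isomaltulose), a slowly digested isomer of sucrose. Sample titles state 22 weeks of feeding and the age label reads 18 weeks, which cannot both hold if that is the age at sampling. Each mouse gave 1 array of an Illumina beadchip, and arrays are named here by the diet and number of their column, such as SUC_417_01 for a sucrose array and PAL_430_04 for a palatinose array. The labels name no inducer of CAR, no altered gene and no pooling of animals.

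CAR is a nuclear receptor of hepatocytes that pairs with the retinoid X receptor RXR and switches on enzymes and transporters that clear drugs, steroids and bilirubin. Cyp2b10 is the classic CAR target of mouse liver and is induced by phenobarbital-like compounds. Cyp2b9 and Cyp2b13 are known as female-biased genes that the male pattern of growth hormone pulses keeps low in male liver. The products of the family are monooxygenases of the endoplasmic reticulum that hydroxylate drugs, steroids and fatty acids. The role of Cyp2b23 is less well described.

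The promoters of the 4 Cyp2b genes are shown because 2 of them, Cyp2b9 and Cyp2b23, moved together from mouse to mouse, whereas Cyp2b10 was near background. Each sequence runs from 250 bases before to 50 bases after the start of the gene, on the strand of the gene, in RefSeq's table for build GRCm38.p6, in which all 5 genes had an entry. The windows are chr7:26173159-26173458 on the + strand for Cyp2b9, chr7:26061245-26061544 on the + strand for Cyp2b13, chr7:26686381-26686680 on the - strand for Cyp2b23 and chr7:25897408-25897707 on the + strand for Cyp2b10. Capitals mark AGGTCA, the core half-site that many nuclear receptors bind, in either orientation.
Cyp2b9: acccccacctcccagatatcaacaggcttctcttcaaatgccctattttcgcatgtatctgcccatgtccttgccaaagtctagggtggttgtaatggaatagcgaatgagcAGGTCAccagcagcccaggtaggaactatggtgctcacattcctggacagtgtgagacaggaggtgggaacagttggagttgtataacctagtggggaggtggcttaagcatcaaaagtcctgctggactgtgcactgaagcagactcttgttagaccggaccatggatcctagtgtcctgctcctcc
Cyp2b13: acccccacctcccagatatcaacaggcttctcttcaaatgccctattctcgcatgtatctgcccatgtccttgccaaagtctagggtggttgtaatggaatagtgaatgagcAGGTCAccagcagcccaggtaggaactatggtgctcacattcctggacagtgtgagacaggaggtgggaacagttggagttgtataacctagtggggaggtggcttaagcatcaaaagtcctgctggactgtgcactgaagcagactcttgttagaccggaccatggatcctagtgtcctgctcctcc
Cyp2b23: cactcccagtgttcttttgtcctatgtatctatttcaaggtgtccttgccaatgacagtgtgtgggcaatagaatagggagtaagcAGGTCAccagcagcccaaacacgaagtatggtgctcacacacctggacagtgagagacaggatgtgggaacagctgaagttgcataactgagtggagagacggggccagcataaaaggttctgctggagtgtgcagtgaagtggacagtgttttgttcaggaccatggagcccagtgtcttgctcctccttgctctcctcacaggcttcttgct
Cyp2b10: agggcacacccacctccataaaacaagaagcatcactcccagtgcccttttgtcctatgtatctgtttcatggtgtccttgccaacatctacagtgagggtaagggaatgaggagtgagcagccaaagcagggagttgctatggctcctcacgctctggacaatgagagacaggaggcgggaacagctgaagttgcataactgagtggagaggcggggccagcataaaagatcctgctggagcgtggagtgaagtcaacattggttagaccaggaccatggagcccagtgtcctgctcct
The half-site began 138 bases before the start in Cyp2b9 and in Cyp2b13 and 164 bases before it in Cyp2b23, and its letters were not in the windows of Cyp2b10 and Nr1i3. It is a common word: 16.3% of the 32851 RefSeq promoters of the same length hold AGGTCA on either strand. The windows of Cyp2b9 and Cyp2b13 differed at 2 of 300 aligned positions, an identity of 99.3%. Identity with Cyp2b9 was 65.0% for Cyp2b23 and 71.7% for Cyp2b10, over 329 and 311 aligned columns with gaps counted. Of those columns 58 and 22 were gaps and 57 and 66 held different bases, so the order of these 2 identities rests on the gaps. Of 5 other words searched on both strands, CACGTG (an E-box) was found in Nr1i3, 244 bases before its start, and in 7.15% of all promoters. TTCNNNGAA (a STAT5 site, 8.30% of all promoters), TGTTTAC (a forkhead site, 3.65%), TTANGTAA (a PAR bZIP site, 2.32%) and TATAAA (13.6%) were in none of the 5 windows. The words do not overlap each other in these windows. The phenobarbital-responsive enhancer of Cyp2b10 lies farther upstream than these windows reach, so they do not show it.

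Signal was quantified on the log2 scale after background correction, with an offset of 16 added, and detection in a liver means a detection p-value under 0.05 there. Testing was limited to the 8829 features detected in 7 or more of the 14 livers. Of the 5 genes, 3 passed this filter: Cyp2b9, Cyp2b23 and Nr1i3. Cyp2b10 and Cyp2b13 did not, and their values are given without it. Hepatocyte markers were high on every array (9 or 10 of 11 detected), and fewer cells of a type and less RNA per cell cannot be told apart in whole liver. On 6 arrays at least 3 markers of skeletal muscle or exocrine pancreas were detected at p under 0.01, namely SUC_411_03, SUC_415_02, SUC_421_03, PAL_407_04, PAL_417_03 and PAL_429_03. These are called the arrays with other tissue here. Values without them are given for the diet differences of Cyp2b9, Cyp2b23 and Nr1i3 and for some r values and list medians of r. Diet differences of the listed genes are given over all arrays only. SUC_411_03 entered on 3 pancreas markers with a summed intensity of 353, inside the 302 to 440 of arrays with 2. Its muscle sum of 32 also lay within the 2 to 59 of the arrays kept. The set therefore leaves out 1 liver without a higher summed signal of either tissue.

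Nr1i3, the receptor, was measured well above background in every liver. Its intensity, on the deposited linear scale, ran from 389 to 876 with sucrose and from 349 to 862 with palatinose. On the log2 scale the lowest, median and highest sucrose values were 8.70, 9.51 and 9.55, and the palatinose values were 8.53, 9.45 and 9.79. A single liver in each diet stood below the rest: SUC_408_02 at 8.70 and PAL_430_01 at 8.53, with the other 12 between 9.33 and 9.79. Means were 9.37 ± 0.30 (SD, n = 7) with sucrose and 9.35 ± 0.39 (SD, n = 7) with palatinose, and the diets overlapped almost completely.

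Cyp2b9 was detected in all 14 livers and spread over nearly the whole range of a mid-level gene. Its intensity ran from 11 to 747 with sucrose and from 37 to 1033 with palatinose. On the log2 scale the lowest, median and highest values were 4.77, 7.70 and 9.68 with sucrose and 5.74, 7.86 and 10.01 with palatinose. Livers high in Cyp2b9 occurred on both diets (SUC_417_01, PAL_417_02 and PAL_430_04, at 9.68 to 10.01), and so did low ones (SUC_408_02, SUC_421_03 and PAL_407_04, at 4.77 to 5.74). From the lowest to the highest mouse the difference was 5.24 log2, or 37.9-fold on this scale, which the offset compresses for dim values. Within a diet the SD of Cyp2b9 was 1.73, the third largest of 8829 features, after Mb (myoglobin, a muscle gene, 2.05) and Hsd3b5 (a male-biased steroid dehydrogenase of liver, 1.86).

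Cyp2b23 had the same kind of spread at the dim end. Its intensity ran from -1 to 209 with sucrose and from -2 to 207 with palatinose, and it was detected in 5 sucrose and 6 palatinose livers. The lowest, median and highest log2 values were 4.26, 5.66 and 7.89 with sucrose and 4.24, 5.76 and 7.77 with palatinose. The livers in which it was not detected were SUC_408_02, SUC_421_03 and PAL_407_04, the lowest 3 of Cyp2b9. The within-diet SD was 1.33, rank 7 of 8829, and since those 3 values lie at the background level the spread is a lower bound. Nr1i3, by contrast, had an SD of 0.35, rank 584.

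Cyp2b13 and Cyp2b10 lay at or near background in most livers. Cyp2b13 was detected in 1 sucrose liver (SUC_417_01, intensity 10) and in 2 palatinose livers (PAL_430_01 at 12 and PAL_430_04 at 21), and its other 11 intensities were between -4 and 7. SUC_417_01 and PAL_430_04 are also the livers with the highest Cyp2b9 of their diets. The Cyp2b10 probe ILMN_1215955 had intensities of 1 to 10 and was detected in 0 sucrose and 2 palatinose livers. The other Cyp2b10 probe, ILMN_2594926, had intensities of -10 to 19 and was detected in 2 livers of each diet. The classic CAR target was thus not measured at a level at which its covariation could be read, and no fold is given for it. A probe not above background gives only a bound, and a low signal can also come from a probe that binds poorly.

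**Figure D1:**
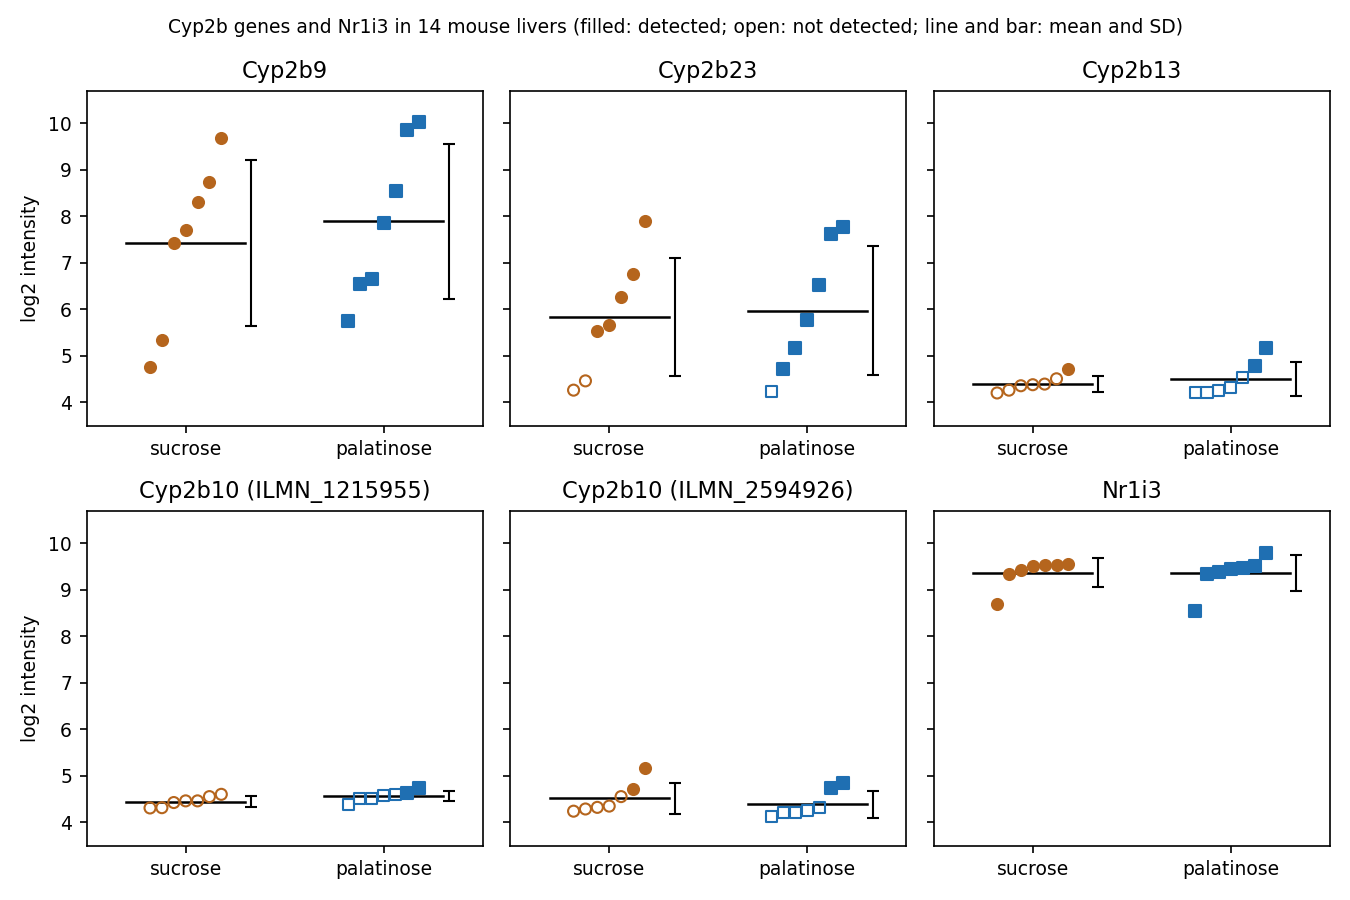
Log2 intensity of each of the 6 probes in the 7 sucrose and 7 palatinose livers, 1 point per mouse, filled where the probe was detected and open where it was not; the line is the mean and the bar the SD. Cyp2b9 and Cyp2b23 span 5.24 and 3.65 log2 between mice within overlapping diets, Nr1i3 has 1 low liver in each diet, and Cyp2b13 and both Cyp2b10 probes stay near background.

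**Figure D2:**
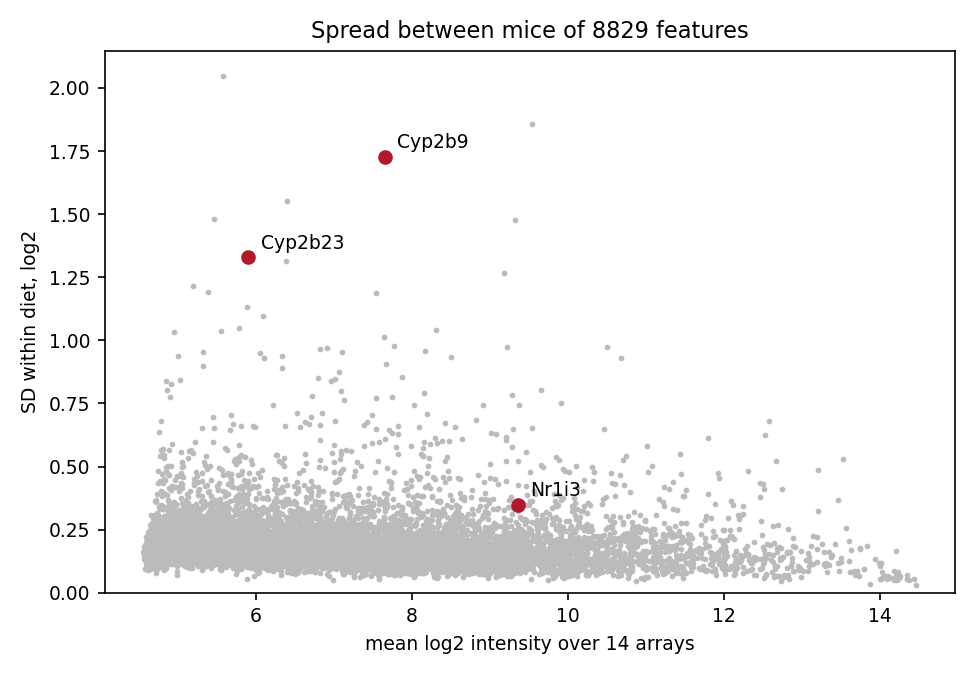
Standard deviation within diet (log2) against mean log2 intensity over the 14 arrays for 8829 features (grey), with the 3 kept genes in red. Cyp2b9 (SD 1.73) and Cyp2b23 (1.33) lie at the top of the spread, and Nr1i3 (0.35) lies much lower.

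No difference between the diets was resolved for these genes. In the limma fit over all features 0 of the 3 kept genes passed an adjusted p of 0.05, against 0% of the 8829 features tested; since the genes were chosen partly on this contrast, nothing is read from that count. The log2 difference, palatinose minus sucrose, was 0.47 for Cyp2b9 (95% interval -1.19 to 2.13, limma adjusted p = 0.91), an interval of 0.437-fold to 4.37-fold in signal. For Cyp2b23 the difference was 0.14 (-1.14 to 1.42, limma adjusted p = 0.964). For Nr1i3 it was -0.01 (-0.36 to 0.34, limma adjusted p = 0.992), an interval of 0.777-fold to 1.26-fold in signal on this scale. For the genes that did not pass the filter, a fit without it gave 0.12 and -0.14 for the probes of Cyp2b10 and 0.10 for Cyp2b13, all within the noise of background.

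The difference of Cyp2b9 depends on which livers are counted. It was 0.02 without SUC_408_02, the liver with the lowest value, and 0.84 without SUC_417_01. Without the 6 arrays with muscle or pancreas markers it was 1.53 (limma adjusted p = 0.552, 4 arrays against 4), and Cyp2b23 differed by 0.93. The 3 palatinose arrays with muscle markers (8 to 11 of 11 detected, summed intensity 813 to 5795) held the lowest 3 Cyp2b9 values of their diet, 5.74, 6.55 and 6.64. The sucrose array with 10 muscle and 15 pancreas markers, SUC_415_02, had a Cyp2b9 of 8.74, the second highest of its diet. SUC_421_03, with 10 pancreas markers (summed intensity 5407) and 0 of muscle, had a Cyp2b9 of 5.34, the second lowest of its diet. On arrays without muscle signal 0 or 1 muscle marker was detected, with a summed intensity of 2 to 59. The part of the other tissue in the Cyp2b9 values was not tested.

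Across mice, Cyp2b9 and Cyp2b23 went up and down together almost in step. Their Pearson r over the 14 livers was 0.976 and Spearman's rho 0.974. The relation held within each diet, at r = 0.970 with sucrose and 0.995 with palatinose, and r was 0.990 without the 2 livers farthest from the median (SUC_408_02 and SUC_421_03). Without the arrays with other tissue it was 0.973. Cyp2b23 changed by 0.75 log2 for each log2 of Cyp2b9, a slope that the offset flattens for the dimmer probe. Both genes lie in 1 cluster on chromosome 7, and members of this family are near-identical in parts. The probe sequences were not used here, so whether the probes also catch transcripts of a paralog, Cyp2b13 included, was not tested.

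The receptor's transcript ran largely apart from Cyp2b9 and Cyp2b23. Nr1i3 and Cyp2b9 had r = 0.21 and rho = 0.02 over 14 livers, with r = 0.52 within sucrose, -0.03 within palatinose and 0.06 without SUC_408_02 and PAL_430_01. Nr1i3 and Cyp2b23 had r = 0.14 and rho = -0.05. SUC_408_02 had the lowest Cyp2b9 of all mice together with a low Nr1i3, whereas PAL_430_01, with the lowest Nr1i3, had a Cyp2b9 of 8.55, above the median of its diet. Without the arrays with other tissue the r of Nr1i3 with Cyp2b9 was 0.48, over 8 livers. CAR acts through its movement into the nucleus as well as through its amount, and mRNA on an array does not show the former.

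**Figure D3:**
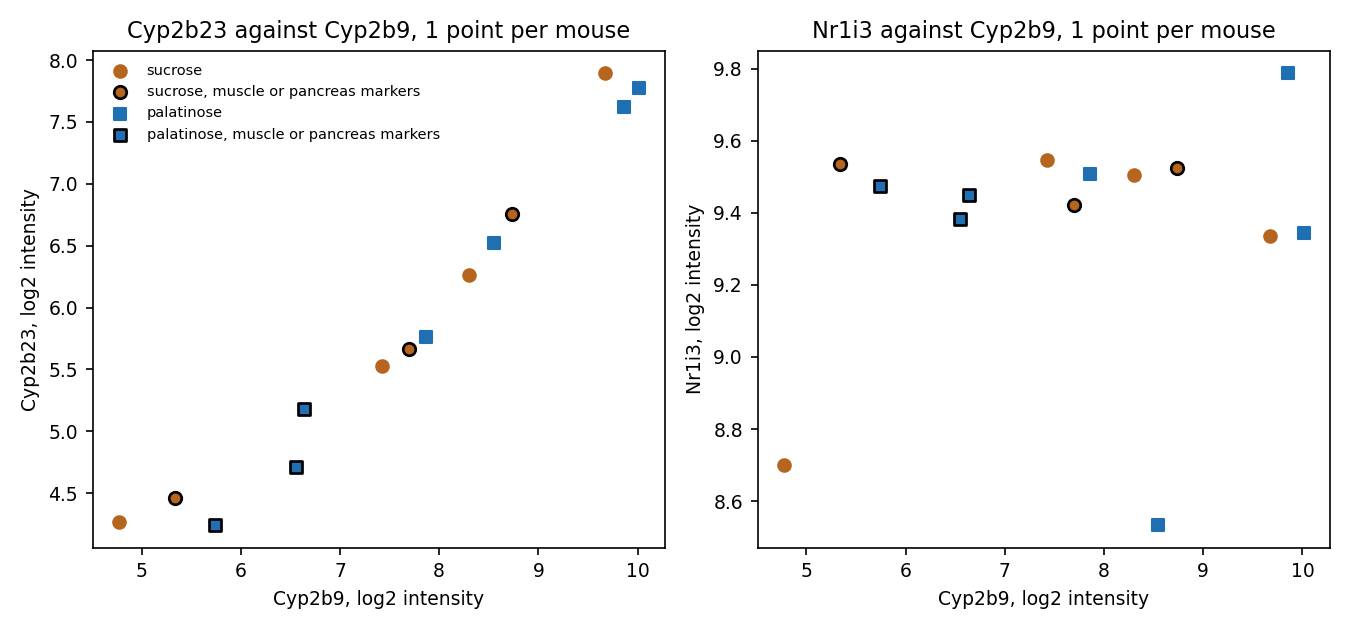
Left, Cyp2b23 against Cyp2b9, and right, Nr1i3 against Cyp2b9, both in log2 intensity, 1 point per mouse (circles sucrose, squares palatinose, black edges for the 6 arrays with muscle or pancreas markers). The left points lie along 1 line (r = 0.976) across both diets; on the right 12 livers form a flat band and 2 lie below it (r = 0.21).

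Other genes of the cluster on chromosome 7 were set beside Cyp2b9. In RefSeq's order the cluster reads Cyp2s1, Cyp2b10, Cyp2b13, Cyp2b9, Cyp2a4, Cyp2b23, Cyp2b19, Cyp2g1, Cyp2a5, Cyp2a22, Cyp2a12, Cyp2f2 and Cyp2t4. With the mean of each diet removed, r with Cyp2b9 over 14 livers was 0.98 for Cyp2b23, 0.89 for Cyp2a5 (coumarin 7-hydroxylase), 0.57 for Cyp2a12, 0.31 for Cyp2f2 and -0.46 for Cyp2s1. Cyp2a5 spanned 11.23 to 12.52 log2, a range of 1.29 against 5.24 for Cyp2b9. Over all 11 other measured genes of the Cyp2a, 2c, 2f and 2s subfamilies, 2 had an r over 0.6 with Cyp2b9, Cyp2a5 and Cyp2c39 (0.66), and 3 were higher and 8 lower with palatinose, with 0 called. For scale, the middle 95% of r with Cyp2b9 over 8826 features ran from -0.61 to 0.61 over 14 livers. Within a diet an r rests on 7 livers and spreads wider. There 7.8% of features were under -0.6 with Cyp2b9 in sucrose and 14.6% in palatinose, against 2.76% over 14 livers.

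The genes most like Cyp2b9 were, by the r with diet means removed, Per3 (a period gene of the circadian clock, 0.90), Pgam1 (a glycolytic mutase, 0.90), Fmo1 (a flavin monooxygenase that oxidises drugs, 0.89), Ces2g (a carboxylesterase, 0.89) and Cyp2a5 (0.89). Those most unlike it were Adh7 (an alcohol dehydrogenase, -0.90), Ddx17 (an RNA helicase, -0.88, but -0.61 with median scaling) and Zfp281 (a zinc finger factor, -0.86). They are the extremes of 8826 features and carry no test. Per3 was dim, from 4.29 to 5.59 log2, and was lowest in PAL_407_04 and SUC_408_02 and highest in PAL_430_04 and SUC_415_02. Without the livers farthest from the median of Cyp2b9, the r of these 8 genes kept its sign and lay between 0.77 and 0.88 in size. Cyp2b23 shared Per3 (0.90), Ces2g (0.87), Pgam1 (0.87), Adh7 (-0.86) and Zfp281 (-0.87) with it and added Bola3 (0.87, of iron-sulfur cluster assembly), Guca1a (0.86, a guanylate cyclase activator) and Ttc14 (-0.86).

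The genes most like Nr1i3 were another set. They were the P450 genes Cyp2c50 (0.94) and Cyp2c37 (0.92), Tpm2 (a tropomyosin, 0.92), Pdzrn3 (a ubiquitin ligase, 0.89) and Acot3 (an acyl-CoA thioesterase, 0.88). The most unlike were Atp6v1b2 (a subunit of the vacuolar proton pump, -0.92), Oas1g (an interferon-induced synthetase, -0.90) and Il17rb (an interleukin receptor, -0.89). These likenesses rest largely on SUC_408_02 and PAL_430_01, though less so for Il17rb and Acot3. Cyp2c50 was 11.89 and 11.20 log2 in those livers and 12.48 to 12.93 in the others, and Cyp2c37 was 12.25 and 11.54 there and 12.68 to 13.10 elsewhere. Without both, r came down to 0.34 for Cyp2c50, 0.34 for Cyp2c37, 0.37 for Tpm2, -0.09 for Pdzrn3 and 0.56 for Acot3, and to -0.41, -0.32 and -0.64 for Atp6v1b2, Oas1g and Il17rb.

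**Figure D4:**
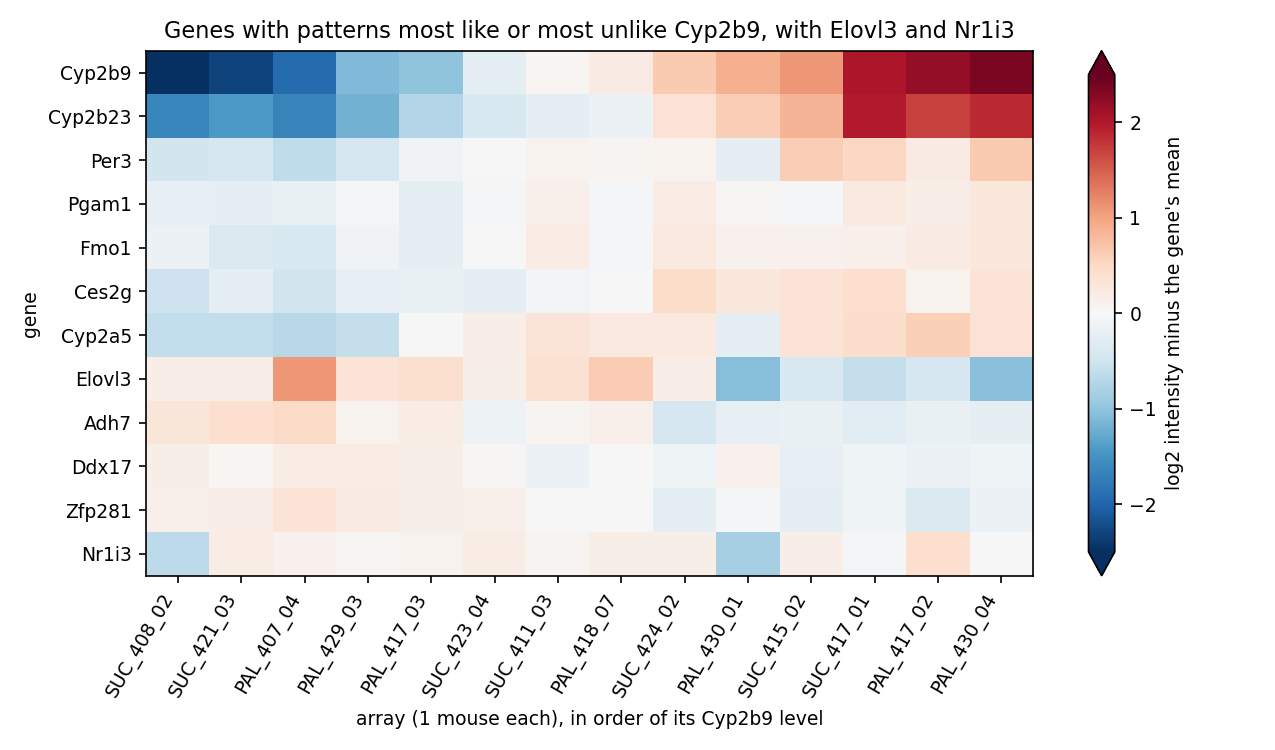
Log2 intensity minus the gene's mean (colour) of Cyp2b9, Cyp2b23, the genes most like and most unlike Cyp2b9, Elovl3 and Nr1i3 in the 14 livers, ordered by Cyp2b9. Cyp2b23 follows Cyp2b9 from left to right, Per3 to Cyp2a5 do so with smaller amplitude, Elovl3, Adh7, Ddx17 and Zfp281 run the other way, and Nr1i3 is low in SUC_408_02 and PAL_430_01.

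Relations of Cyp2b9, Cyp2b23 and Nr1i3 with 25 measured genes of their regulation and targets were computed as Pearson's r and Spearman's rho over the 14 livers, 75 pairs in all. In a permutation of the arrays (100000 resamples, two-sided, Benjamini-Hochberg over the 75 pairs) 0 pairs passed an adjusted p of 0.05 by either measure, and 12 had an unadjusted p under 0.05 by Pearson's r. Covariation across mice was among the values the genes were chosen by, so the r values are given as a description and those p-values support nothing. Of these 25 genes, Cyp2b23 had its strongest negative r with Elovl3, a male-biased elongase of very long fatty acids, at -0.777 (rho = -0.75). It was -0.78 in sucrose, -0.85 in palatinose, -0.78 without PAL_430_01 and PAL_430_04, and -0.68 without the arrays with other tissue. Cyp2b9 had r = -0.70 with Elovl3 (rho = -0.70), and -0.60 without the arrays with other tissue.

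The other pairs of those 12, a cut used only to choose which to describe, fell into a few kinds. Elovl3, Cyp7b1 and Ppargc1a each count among the 12 with both Cyp2b9 and Cyp2b23, whose own r was 0.976, so these are not separate relations. Cyp7b1, a male-biased oxysterol hydroxylase, had r = -0.58 with Cyp2b9 and with Cyp2b23, -0.83 and -0.84 within palatinose and -0.16 and -0.08 within sucrose. Ppargc1a, a coactivator of fasting metabolism, had -0.57 and -0.59, with the same sign in each diet. Cidea, a lipid droplet protein, had 0.57 with Cyp2b9 (rho = 0.36), 0.25 without SUC_408_02 and PAL_430_04, and 0.80 without the arrays with other tissue. Of the PAR bZIP factors, which follow the clock, Dbp had 0.54 and Tef 0.56 with Cyp2b23. Hlf, another of these factors, was not among the 12 and had -0.27 with Cyp2b23, at -0.56 within palatinose and 0.003 within sucrose. Nfil3, their antagonist, had -0.57 with Cyp2b23, at -0.85 within palatinose and 0.07 within sucrose. Nr1i3 had 0.82 with Cyp2d9, a male-biased P450 (rho = 0.47, and r = -0.37 without SUC_408_02 and PAL_430_01). It had 0.61 with Abcc3, a bile acid and conjugate exporter (rho = 0.28, and r = 0.48 without SUC_408_02 and SUC_424_02). Among other anchors that CAR is known to act on or with, Alas1, Rxra and Cyp3a11 depended on the livers counted. Alas1, the first enzyme of haem synthesis, had r = 0.50 with Nr1i3 and -0.12 without PAL_407_04 and PAL_430_01. Rxra, the partner of CAR, had 0.42 and -0.19 without PAL_430_01 and PAL_430_04. Cyp3a11 had -0.22, at 0.59 in sucrose and -0.52 in palatinose. Cyp2c29 varied less, with 0.35, at 0.51 in sucrose, 0.38 in palatinose and 0.39 without SUC_423_04 and SUC_424_02.

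No gene of the wider set of CAR and PXR targets passed the test between the diets. Of 34 listed targets on the array 28 were measured, 8 higher and 20 lower with palatinose, and 0 called in either direction, against 4838 higher and 3991 lower of all 8829 features. Their median log2 difference was -0.14, and that of all features 0.01. The largest differences were in Gsta1, a glutathione transferase, at -0.49 (-1.98 to 1.00, limma adjusted p = 0.892), and Cyp2c29, a CAR-inducible P450, at -0.41 (-0.77 to -0.04, limma adjusted p = 0.681). Of 26 measured partners and regulators of the receptor 8 were higher and 18 lower, median -0.07, led by Hsp90aa1, the chaperone that holds CAR in the cytoplasm (-0.28), and Ppara, the fatty acid receptor (-0.28). The smallest limma adjusted p was 0.678 in either list.

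Between mice, Cyp2b9 ran with more of these targets than against them. With diet means removed, 23 of 28 had a positive r with Cyp2b9, with a median of 0.37 where the median over all features was -0.01. The highest were Cyp2a5 (0.89), Gstt3 (0.79) and Gstt1 (0.66), both theta-class glutathione transferases, and Gadd45b, a stress gene that is also a CAR coactivator, was lowest (-0.61). Without the 2 livers farthest from the median the list's median r was 0.18, with 20 of 28 positive. With Nr1i3, 17 of 28 targets were positive at a median of 0.30, which was 0.07 without SUC_408_02 and PAL_430_01 and 0.50 without the arrays with other tissue. For the partners and regulators the median r with Cyp2b9 was -0.29, and the extremes were Ppp1r16a, a phosphatase subunit (0.85), and Foxa3, a liver forkhead factor (-0.67, and -0.39 without SUC_408_02 and SUC_421_03). These r values share the 14 arrays and are descriptions.

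Female- and male-biased genes were followed because Cyp2b9 and Cyp2b13 belong to the female-biased set. Of 7 measured female-biased genes other than those described here, 2 were higher and 5 lower with palatinose, with 0 called and a median of -0.06, and the largest differences were in Acot3 (-0.60) and Acot4 (-0.29). Their median r with Cyp2b9 was 0.19. Of 20 male-biased genes 2 were higher and 18 lower, with 0 called and a median of -0.19, and the largest differences were in Hsd3b5 (-1.38) and Keg1 (-0.49). Cyp2b9 had a median r of -0.07 with the male-biased genes, -0.42 within palatinose (19 of 20 negative) and 0.24 within sucrose (7 of 20 negative), and of 0.18 without the arrays with other tissue (7 of 20 negative). Strong r values were common in palatinose, where 14.6% of all features were under -0.6 with Cyp2b9. The strongest negative values were for Serpina1e, an antitrypsin (-0.85), Elovl3 (-0.70) and C6, a complement gene (-0.70). For 9 growth hormone signalling genes 3 were higher and 6 lower, 0 called, median -0.12, with Socs2 (-1.13) and Cish (-0.62), feedback inhibitors of the receptor, largest. Igf1, the hormone that growth hormone induces, had the strongest r of the 9 with Cyp2b9, at -0.68. Stat5a (0.45) and Bcl6 (0.31) were the 2 with a positive r. The median r of the 9 with Cyp2b9 was -0.27, and 0.05 without the arrays with other tissue.

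Clock and fasting genes varied with Cyp2b9 in both directions. Of 12 clock and PAR bZIP genes 5 were higher and 7 lower with palatinose, 0 called, median -0.03, with Dbp (-0.44) and Per1 (-0.35) largest. Of the 12, 6 were positive and 6 negative with Cyp2b9. Per3 (0.90), Per2 (0.77), Cry2 (0.59), Dbp (0.57), Tef (0.50) and Nr1d2 (0.41) were positive. Clock (-0.66), Arntl (-0.56), Nfil3 (-0.56), Hlf (-0.22), Nr1d1 (-0.14) and Per1 (-0.09) were negative. The median r of the 12 genes with Cyp2b9 was 0.16, and 0.41 without the arrays with other tissue. No label gives the hour at which a liver was taken, and its part was not tested. Of 10 fasting-response genes 4 were higher and 6 lower, 0 called, median -0.03, with Lpin1 (-0.37) and Pdk4 (0.36) largest, and 8 of 10 were negative with Cyp2b9 at a median r of -0.35 (-0.48 without the arrays with other tissue). Fgf21, a hormone of the fasted liver, was lowest at -0.82 (-0.92 in sucrose, -0.70 in palatinose and -0.70 without SUC_408_02 and SUC_421_03).

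Genes of the hepatocyte zones took opposite signs with Nr1i3 by zone. All 12 pericentral genes had a positive r with Nr1i3 (median 0.42) and all 10 periportal genes a negative one (median -0.65, 6 of them under -0.6), among them Hal (histidine lyase, -0.78), Aldh1b1 (-0.77), Cps1 and Asl (urea cycle enzymes, both -0.71). Without SUC_408_02 and PAL_430_01 the medians were -0.03 and -0.08, so the alignment rests on those 2 livers. Without the arrays with other tissue, which keeps both livers, the medians were 0.63 (11 of 12 positive) and -0.79 (10 of 10 negative). With Cyp2b9 the medians were -0.16 and 0.16, and both turned with the livers counted. The pericentral median was 0.30 within sucrose, -0.58 within palatinose and 0.33 without the arrays with other tissue (11 of 12 positive). The periportal median was -0.18, 0.30 and -0.28 (9 of 10 negative) in the same order. Between the diets 5 pericentral genes were higher and 7 lower, median -0.08, with Cyp2c29 (-0.41) and Tbx3 (0.32) largest. Of the periportal genes 3 were higher and 7 lower, median -0.10, with Asl (-0.40) and Pck1 (-0.34) largest, and 0 of either list were called. The 4 measured Kupffer cell genes had a median r of -0.56 with Nr1i3, led by Clec4f (-0.87) and Vsig4 (-0.79), and of -0.05 without the same 2 livers. Those livers had the highest summed intensity of the 5 Kupffer cell and macrophage markers, 1256 in SUC_408_02 and 1390 in PAL_430_01, against 506 to 1007 in the others, and its part in the low Nr1i3 values was not tested. With Cyp2b9 the 4 genes had a median r of -0.11, and -0.62 without the arrays with other tissue.

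**Figure D5:**
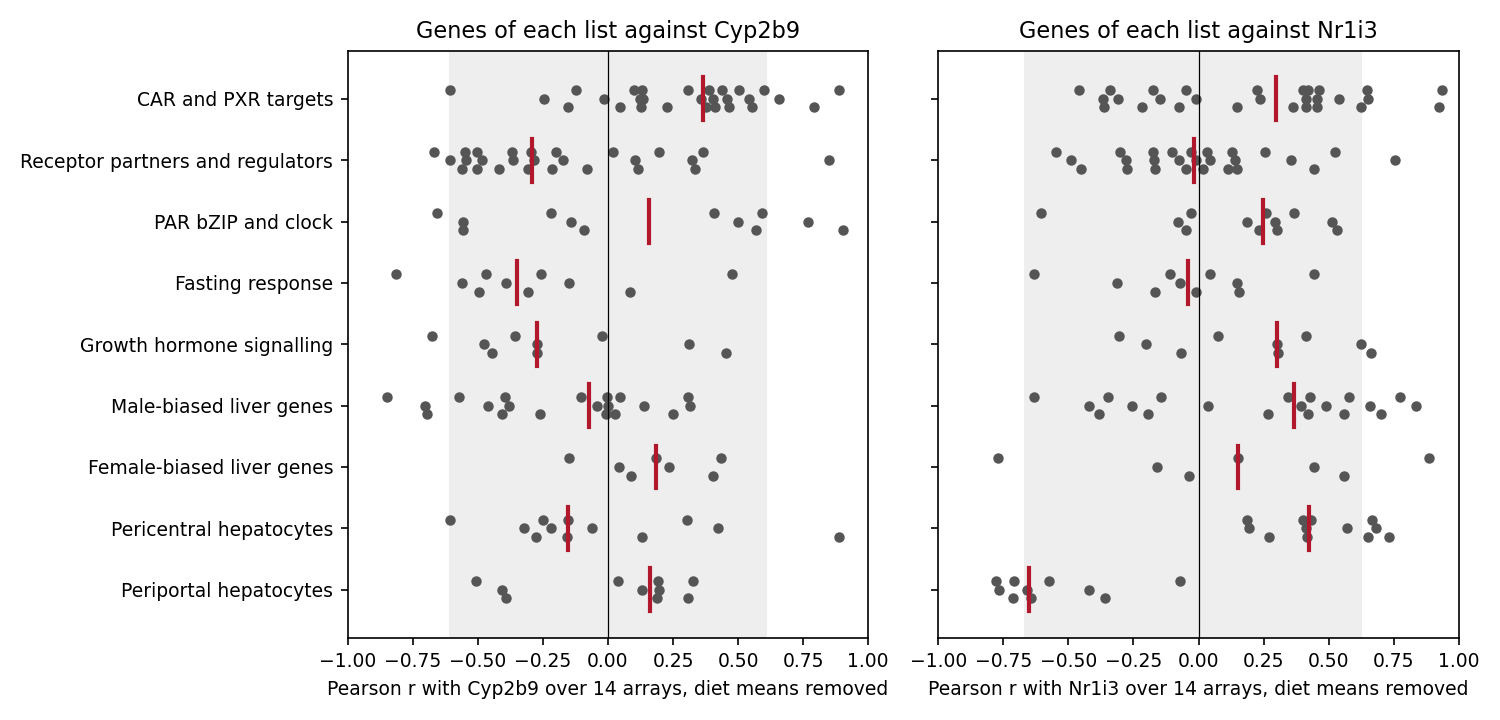
Pearson r over 14 arrays, with diet means removed, of each measured gene of 9 lists with Cyp2b9 (left) and Nr1i3 (right); red bars are list medians and the grey band is the middle 95% of r over 8826 features. Of 28 CAR and PXR targets, 23 lie to the right of 0 for Cyp2b9 (median 0.37, and 0.18 without SUC_408_02 and SUC_421_03). For Nr1i3 the periportal genes lie to the left (-0.65) and the pericentral genes to the right (0.42), which rests on 2 livers.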

How the data were processed

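Liver RNA of 14 mice was measured, 7 per diet. Per the labels, RNA was purified on RNeasy columns with DNase and biotinylated with Illumina TotalPrep. Per the file headers, the deposited table holds per probe a non-normalized signal intensity and a detection p-value on each array; 23.0% to 26.4% of an array's intensities are below 0, so background had been subtracted. The authors' second deposited table holds intensities normalized between arrays, with medians of 21; the sources used here name neither its method nor the scanner software.

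Intensities were background-corrected from the detection p-values, given an offset of 16, quantile normalized and put on the log2 scale (neqc, limma 3.58.1, R 4.3.3); log2 values were computed here from the deposited intensities. Probes detected at p under 0.05 on 7 arrays were kept (11628), with the brightest kept probe for each gene: 8146 named genes and 683 unnamed probes. Of 25697 probes 23978 carry 1 gene symbol, from the platform annotation, and 1719 none. Each array detected 11457 to 12476 probes. Arrays give no counts, and their number limits the precision. The limma p-values set a diet difference against the spread between these mice, and the permutation p-values set an r against shuffled arrays.

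Diets were compared with lmFit and eBayes over all features (Benjamini-Hochberg, two-sided, palatinose minus sucrose). Non-normalized columns name the diet, not the sample. Correlations used scipy 1.17.1 and numpy 2.4.6, promoter alignments Biopython 1.88, random blocks statmod 1.5.0. The fit was tested on simulated data. The genes, lists and rule for names were chosen with earlier results of these data known. The rule names every probe of the 5 genes, the 5 most and 3 least alike genes of each, 33 listed anchor genes (25 measured) and 2 members of each list. Genes named beyond it were chosen after their values were seen. Alternatives covered background, scaling, filter, offset, probes, weights, blocks and left-out arrays. Replicate numbers of the labels, on the authors' values, do not pair the mice: r of same-numbered deviations was over 0.1 for 3 of 7.

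Lists of other cell types had no called gene and few measured members: skeletal muscle 1, pancreas 3, adipocytes 1, sinusoidal endothelium 6 (2 higher with palatinose), stellate cells 5 (3 higher), cholangiocytes 2, lymphocytes 1, Kupffer cells 4 (1 higher) and hepatocytes 9 (6 higher).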

Additional observations from a re-analysis of the deposited data

Results flagged for a closer look

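The Nr1i3 values set 1 liver apart from its group in each diet. In sucrose, SUC_408_02 lay at 8.70 log2 and the nearest other value at 9.33, a gap of 0.75 of the range of the 7 values. In palatinose, PAL_430_01 lay at 8.53 and the nearest other value at 9.34, a gap of 0.65 of the range. Both gaps exceed Dixon's 95% critical value for 7 samples, which is given as a description, since the genes were chosen partly by these levels. With 12 groups tested (6 probes in 2 diets) chance sets apart about 1 in 20. Neither array has more than 1 muscle or 2 pancreas markers, and 46.7% and 46.6% of their probes were detected, against 44.6% to 48.6% over all arrays. Both have the highest summed intensity of Kupffer cell and macrophage markers, 1256 and 1390 against 506 to 1007 on the other 12 arrays. The number detected does not set them apart: 4 of 5 on each, as on all others but PAL_429_03 and PAL_430_04, with 3. The part of the summed intensity in the low Nr1i3 values was not tested.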

How the results depend on the processing

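No setting put Cyp2b9, Cyp2b23 or Nr1i3 past an adjusted p of 0.05 between the diets; without the filter 1 feature passed. The difference of Cyp2b9 stayed above 0 in all settings run, from 0.10 with the column code as a random block to 1.53 without the arrays with muscle or pancreas markers, and from 0.02 to 0.84 with 1 array left out. The difference of Cyp2b23 became -0.035 with array weights and -0.19 with the column code as a random block, and ran from -0.16 to 0.48 with 1 array left out. That of Nr1i3 became 0.062 and 0.038 under the same settings, and 0.021 without the arrays with other tissue, and ran from -0.12 to 0.12. On the authors' values the replicate block, whose numbers do not pair the mice, left Cyp2b9 at 0.47 (limma adjusted p = 0.831) and 0 calls; own number was the best match for 1 of 7. The r of Cyp2b9 with Cyp2b23 lay between 0.97 and 0.98 in every setting and with any 1 array left out, and was 0.990 without 2 arrays, while that of Nr1i3 ran from -0.10 to 0.46 with Cyp2b9 and from -0.092 to 0.34 with Cyp2b23 when 1 array was left out, and was 0.48 and 0.39 without the arrays with other tissue, chosen after seeing the data for these correlations. By Spearman Nr1i3 and Cyp2b23 gave -0.046. Pairs with anchors past the threshold numbered 0 to 3 with 1 array left out (3 without PAL_417_02 and 1 without PAL_430_01), from which nothing is read. With median scaling Atp6v1b2 had -0.58 with Nr1i3. The cause of these changes was not tested. Dim probes (Cyp2b10, Cyp2b13 and low Cyp2b23 values) lack signal over background.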
